A study of Homo sapiens with 8 samples.

Results

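The rows of human chromosome 22 were followed across versions and sublines of PC9, a human non-small cell lung cancer line driven by an in-frame deletion in exon 19 of EGFR. A row is 1 line of the count table, labelled with a gene symbol, and it was taken as a chromosome 22 row when its name matched exactly 1 symbol of the GENCODE annotation (release 44) and that gene lies on chromosome 22. This gave 483 rows of the 22664 named rows in the table. Of these, 133 had 0 counts in every library, 176 had counts but a mean under 10, 63 had a mean of 10 to under 50, and 111 had a mean of at least 50 counts and were compared. The 111 rows hold 96.11% of the counts of chromosome 22, and their mean counts run from 50.1 to 2790.75 with a median of 227.62.

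Bulk RNA-seq was performed once on each of 8 untreated populations. PC9-VU is the version kept at Vanderbilt University, PC9-MGH is a version acquired separately from Massachusetts General Hospital, and PC9-BR1 was raised out of PC9-VU under increasing doses of afatinib, an EGFR inhibitor, and carries a secondary resistance mutation in EGFR. DS3, DS6, DS7, DS8 and DS9 are sublines, each expanded from a single PC9-VU cell. For DS8 the paper proposes, from its drug response, more than 1 cell state, so its library may average over them. All 8 populations carry the exon 19 deletion and a fluorescent nuclear label, were grown in the same medium with serum, and were at passage 8 to 10, so no population stands for unlabelled or wild type cells.

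Chromosome 22 is a small acrocentric chromosome, with its protein-coding genes on the long arm, and it is among the chromosomes richest in genes and in GC. When a stretch of a chromosome is gained or lost in a cancer cell line, the RNA of many neighbouring genes tends to be higher or lower together, although regulation of single genes scatters around that shift. Runs of neighbouring rows that move the same way are therefore a usual readout of bulk RNA when DNA copy number is examined. RNA levels are not copy numbers, and in bulk RNA a larger share of cells with more RNA and more RNA in every cell cannot be told apart.

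The named rows summed to between 2717355 and 3497722 counts per library. Counts were turned into log2 CPM, the counts scaled to a common library total on a log2 scale, and each library was set against the median of the other 7, so that a log2 difference of 0 means the level of the typical other library. The references of different libraries share most of their members, so their differences are not independent. Each population has a single library, so there is no replicate error, no test was made, and a difference between populations cannot be told apart from a difference between 2 libraries. Intervals given with medians are exact 95% intervals over rows, which treat the rows as independent, and intervals given with summed counts are exact Poisson 95% intervals, which cover counting error only.

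The names of the rows did not mark where the counts came from. The exons of the named genes were moved along the chromosome in steps of 1000 bases, and the share of rows that then overlapped a coding exon was compared between rows with counts and rows with nearly none. Left in place, the exons overlapped in 95.5% of the 111 rows with counts and in 84.3% of 217 rows with a mean under 1. Moved by 396 kb toward the end of the long arm, they overlapped in 87.4% of the rows with counts and in 26.3% of the rows without, which is the widest separation within 1 Mb on either side. For that reason no gene is named from a row, the lung cell identity of the libraries could not be checked on marker genes, and no sequence is given for a row.

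**Figure D1:**
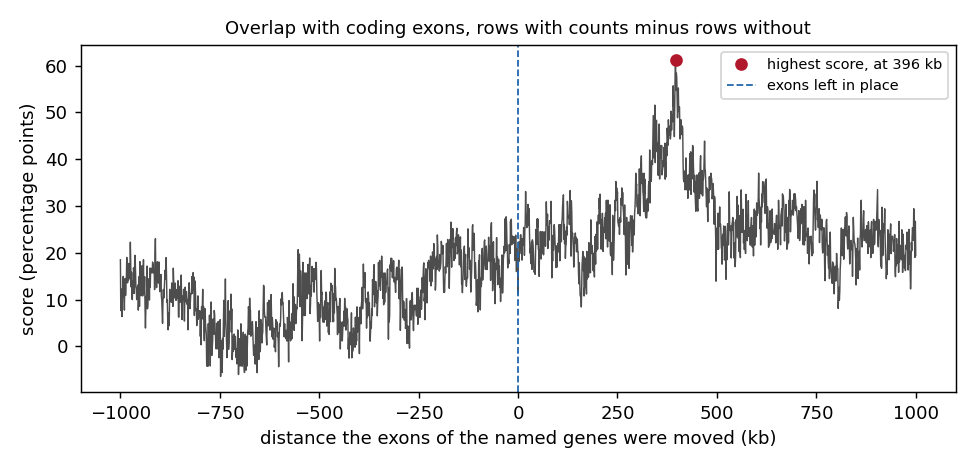
Score against the distance in kb by which the exons of the named genes were moved, where the score is the percentage of rows with counts that overlap a coding exon minus that of rows without counts. The score reaches 61.1 percentage points at 396 kb. It is 11.2 with the exons left in place, where it reflects the gene types of the rows.

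The distance was the same in the central and the distal block of the chromosome when 3 blocks of rows were searched separately. Both gave 396 kb, with an overlap of 100% against 23% in the rows from 27.9 to 39.0 Mb and of 95.3% against 25.6% in those from 39.0 to 50.8 Mb. The block nearest the centromere, from 15.5 to 27.8 Mb, gave 439 kb with 74.2% against 16.7%, and it gave -19 kb when rows with a mean of at least 10 were set against rows with 0 counts. Placement is thus less certain in the proximal block. With each block moved by its own distance, 439, 396 and 396 kb, 101 of the 111 rows lay over a coding exon of 86 genes, and 29 rows shared their gene with another row, so neighbouring rows are not all separate measurements and the intervals over rows are too narrow.

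Rows were ordered by the start of the gene they are named for and cut into 7 windows of 15 rows, the last with 21. In hg38 coordinates of the named genes, window 1 is chr22:17084954-20148007, window 2 is chr22:20338805-24178628 and window 3 is chr22:26491225-31292534. Window 4 is chr22:31488688-37942822, window 5 is chr22:38084652-40819399, window 6 is chr22:40824535-43812337 and window 7, the end of the long arm, is chr22:43999211-50307646. A shift of 396 kb is small beside windows that span 2.73 to 6.45 Mb, so window positions are good to about that distance outside the proximal block.

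Over the whole chromosome PC9-MGH was the library that stood apart. Its median log2 difference over the 111 rows was 0.38 (0.22 to 0.51), a 1.31-fold level, with 74 rows above the median of the other 7, while over all 4529 rows compared in the genome its median was 0.01. PC9-BR1 had a median of 0.06 (-0.02 to 0.14) and PC9-VU one of 0.02 (-0.05 to 0.05). The sublines lay at -0.02 in DS3, -0.05 in DS6, -0.06 in DS7, -0.08 in DS8 and -0.04 in DS9, each with an interval that includes 0. Among the 23 chromosomes compared, chromosome 22 ranked 2 from the highest in PC9-MGH, 8 in PC9-BR1, 7 in PC9-VU, and between 14 and 19 in the sublines. Over these 111 rows the chromosome was thus higher in PC9-MGH and close to the other libraries in PC9-BR1. The call in PC9-MGH depended on leaving out the rows with the fewest counts. With rows down to a mean of 10 counts its median stayed within the interval above. In that setting 32.2% of chromosome 22 rows were at least 1.5-fold higher, where 15.5% of all rows were. Over all 350 rows with any count, most of them with few, its median was 0.0.

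The summed counts also set PC9-MGH apart. The chromosome 22 rows summed to 20666 CPM in PC9-MGH (20500 to 20832), against 15353 in PC9-VU, 15644 in PC9-BR1, 14913 in DS3, 15219 in DS6, 14473 in DS7, 16230 in DS8 and 14932 in DS9. PC9-MGH was above all 7 others, which lay between 14473 and 16230 CPM. DS8 was the next highest by its sum, although its median over rows was the lowest of the 8.

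**Figure D2:**
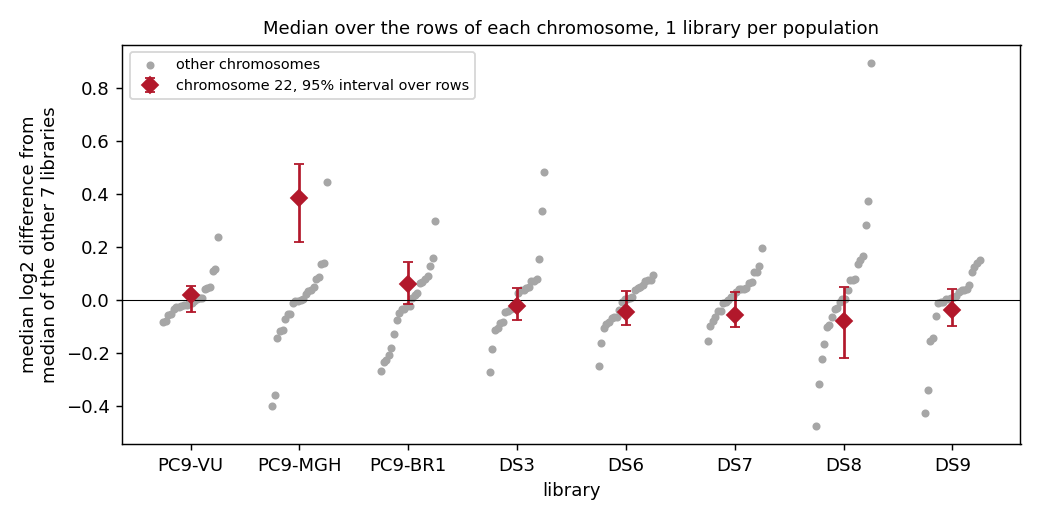
Median log2 difference from the median of the other 7 libraries over the rows of chromosome 22 (diamonds, with exact 95% intervals over rows) and of each other chromosome (grey points), for the 8 libraries. Chromosome 22 lies at 0.38 in PC9-MGH, its second highest chromosome, and between -0.08 and 0.06 in the other 7 libraries.

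The 3 chromosomes nearest to chromosome 22 (47.0%) in GC content were set beside it. In PC9-MGH their medians were 0.08 for chromosome 19 (47.9%), -0.003 for chromosome 17 (45.3%) and -0.07 for chromosome 16 (44.6%), where chromosome 22 had 0.38. With the GC content within 250000 bases of each named gene corrected by a smooth fit, the chromosome 22 median of PC9-MGH was 0.41. Since the counts fitted exons 396 kb from the named genes best, this GC content may not be that of the sequence counted. The fit therefore cannot show what a correction at the counted place would give. What part base composition has in the difference was not tested.

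The rows of chromosome 22 also differed among themselves more than most chromosomes did in PC9-MGH and DS8. The interquartile range of the log2 differences was 1.21 in PC9-MGH, the widest of its 23 chromosomes, where all rows had 0.72. It was 0.70 in DS8, the second widest, where all rows had 0.49. PC9-BR1 had 0.44 and ranked 8, with 0.41 over all rows, and PC9-VU had 0.23 and ranked 13, with 0.24. A single median therefore describes the chromosome poorly in PC9-MGH and DS8, and the windows show where the rows lay.

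Of the 111 rows, 41 were at least 1.5-fold higher in PC9-MGH (36.9%), where 14.1% of all rows compared were, and 19 were at least 1.5-fold lower (17.1%), where 15.8% of all rows were. The excess in PC9-MGH was on the higher side, and the lower share was near the background. In PC9-BR1, 14 rows were higher (12.6%, background 4.57%) and 8 were lower (7.21%, background 6.82%). DS8 had 19 rows higher (17.1%, background 8.17%) and 20 lower (18.0%, background 7.97%), so both of its shares were above the background at this fold and filter. With rows of any count its higher share was 17.1%, where 16.0% of all rows were, and at 2-fold its lower share was 2.7%, where 2.45% of all rows were. The remaining libraries had few such rows. PC9-VU had 0 higher (background 1.17%) and 4 lower (3.6%, background 1.1%). That lower share was above the background, with an interval of 0.99% to 8.97% that includes it. DS3 had 2 higher (1.8%, background 4.46%) and 4 lower (3.6%, background 4.15%). DS6 had 3 higher (2.7%, background 3.93%) and 2 lower (1.8%, background 3.89%). DS7 had 0 higher (background 2.01%) and 3 lower (2.7%, background 5.39%). DS9 had 1 higher (0.9%, background 3.49%) and 2 lower (1.8%, background 3.89%).

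**Figure D3:**
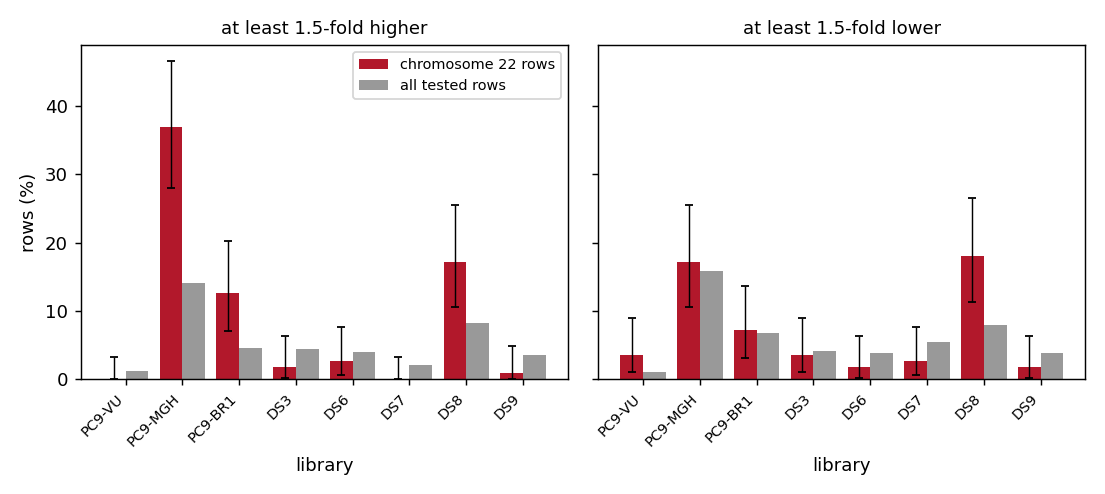
Percentage of rows at least 1.5-fold above (left) or below (right) the median of the other 7 libraries, for the 111 chromosome 22 rows (red, with exact binomial 95% intervals) and for all 4529 rows compared (grey). PC9-MGH has 36.9% of chromosome 22 rows on the higher side against 14.1% of all rows, and DS8 has 17.1% higher and 18.0% lower against 8.17% and 7.97%.

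Along the chromosome the 3 libraries with wide ranges had different profiles. From window 1 to window 7 the medians of PC9-MGH were -0.57, -0.07, 0.23, 1.03, 0.41, 0.44 and 1.24. Those of PC9-BR1 were 0.15, 0.02, 0.05, -0.29, -0.02, -0.07 and 0.60. Those of DS8 were -0.54, -0.64, -0.27, 0.77, 0.39, 0.04 and -0.11. By intervals over rows that exclude 0, PC9-MGH was low in window 1 and high in windows 4, 6 and 7, PC9-BR1 was low in window 4 and high in window 7, and DS8 was low in windows 1 and 2 and high in windows 4 and 5. Among the other 5 libraries such intervals were found for DS3 in windows 1 and 4 and for DS7 in window 2, with medians of 0.25, -0.08 and 0.17. The highest and lowest windows were 1.81 apart in PC9-MGH, 1.42 in DS8 and 0.89 in PC9-BR1, and between 0.23 in PC9-VU and 0.42 in DS3 for the other 5 libraries.

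**Figure D4:**
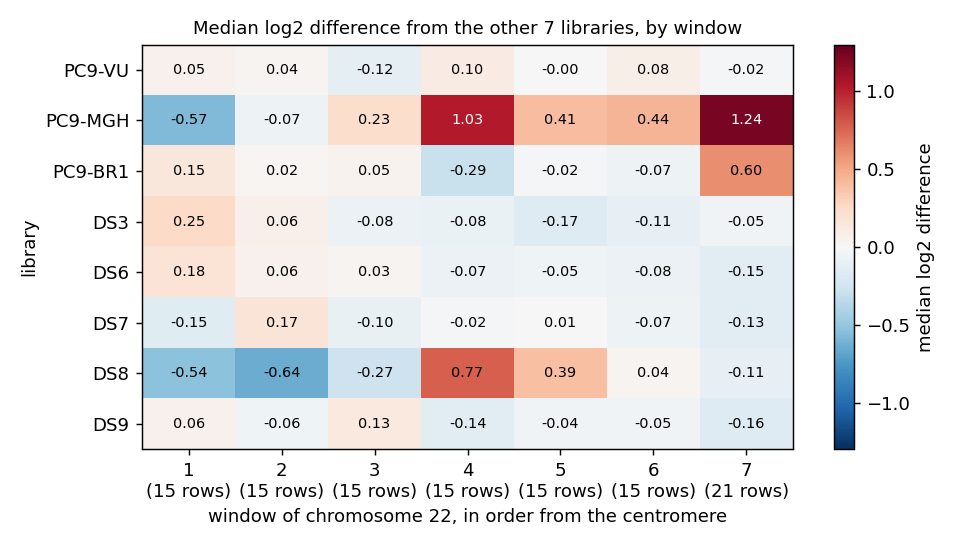
Median log2 difference from the median of the other 7 libraries in each of 7 windows of chromosome 22 (columns, in order from the centromere) for the 8 libraries (rows), with the value written in each cell and red for higher. PC9-MGH runs from -0.57 in window 1 to 1.24 in window 7, PC9-BR1 departs in windows 4 and 7, and DS8 turns from -0.64 in window 2 to 0.77 in window 4.

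Window 1, nearest the centromere, was lowest in PC9-MGH and DS8. Its summed counts were 1384 CPM in PC9-MGH and 1494 in DS8, against 2190 in PC9-VU, 2229 in PC9-BR1, 2229 in DS3, 2146 in DS6, 2027 in DS7 and 2296 in DS9. The lower pair does not overlap the other 6 libraries. The median log2 difference was -0.57 in PC9-MGH (-1.05 to -0.31), with 0 of 15 rows higher, and -0.54 in DS8 (-0.72 to -0.20), with 2 of 15 higher. DS3 lay on the other side at 0.25 (0.09 to 0.35). The row with the most counts in the window, row 15 in order, had 329 CPM in PC9-MGH and 362 in DS8, and between 419 in DS6 and 518 in DS7 in the others.

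Window 2 was lower in DS8, while PC9-MGH changed side within it. The summed counts were 859 CPM in DS8 (825 to 893) and 1176 in PC9-MGH, against 1389 in PC9-VU, 1454 in PC9-BR1, 1383 in DS3, 1449 in DS6, 1476 in DS7 and 1409 in DS9. All 15 rows were lower in DS8, with a median of -0.64 (-0.89 to -0.44), which was -0.35 on the rlog scale, a log2 scale of DESeq2 that shrinks differences between libraries. In PC9-MGH the median was -0.07 with a wide interval (-1.09 to 0.24), and 6 of 15 rows were higher. Windows of 10 rows separated the parts, at -0.92 from 17.1 to 19.5 Mb, -0.57 in the next, which ends at 21.6 Mb, and 0.16 from 21.9 to 24.2 Mb. The first 22 rows of the chromosome, from 17.1 to 23.3 Mb, were all lower in PC9-MGH. DS8 had no such turn in this stretch, with -0.54, -0.57 and -0.63 in the same 3 windows of 10 rows.

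In window 3 the interval of every library included 0. Its summed counts were lowest in DS8, at 1684 CPM, and highest in PC9-MGH, at 2237, with the others between 1945 in DS7 and 2148 in DS6.

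Window 4 was where PC9-MGH and DS8 lay above and PC9-BR1 lay below the other libraries. The summed counts were 4020 CPM in PC9-MGH, 4302 in DS8 and 1682 in PC9-BR1 (1634 to 1732), against 2806 in PC9-VU, 2620 in DS3, 3000 in DS6, 2362 in DS7 and 2437 in DS9. The median log2 difference was 1.03 in PC9-MGH (0.52 to 1.27), a 2.05-fold level with 14 of 15 rows higher, and 0.77 in DS8 (0.31 to 1.18), a 1.71-fold level with 13 of 15 rows higher. In PC9-BR1 it was -0.29 (-1.28 to -0.10), with 1 of 15 rows higher. PC9-MGH and PC9-BR1 thus lay on opposite sides of the other 5 libraries in their sums.

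The lower rows of PC9-BR1 were next to each other. Of the 8 rows at least 1.5-fold lower in PC9-BR1 on the whole chromosome, 7 were rows 49 to 55, from 35.3 to 37.7 Mb, which at the moved positions lay over 6 genes. This stretch was picked for its values and is given as a description. Its log2 differences in PC9-BR1 were between -1.61 and -0.88 with a median of -1.28, while rows 56 to 60 lay between -0.29 and -0.10. The first rows of window 4, rows 46, 47 and 48, were close to the other libraries, at 0.02, -0.09 and -0.04. The stretch summed to 629 CPM in PC9-BR1, against 1647 in PC9-VU, 1852 in PC9-MGH, 1638 in DS3, 1934 in DS6, 1260 in DS7, 2263 in DS8 and 1211 in DS9. PC9-BR1 was below the lowest of the others, DS9. The median of window 4 in PC9-BR1 therefore came from a mixture of strongly lower, weakly lower and nearly unchanged rows. It was -0.58 when only the row with the most counts was kept for each gene under the moved exons. With rows of few counts included it was -0.10.

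The largest row of window 4 varied among the sublines as well. Row 53 had 292 CPM in PC9-BR1, 458 in PC9-MGH, 888 in PC9-VU, 975 in DS3, 1243 in DS6, 581 in DS7, 1110 in DS8 and 580 in DS9. It was low in PC9-MGH although 14 other rows of the window were higher there, and it holds 26.6% of the counts of the window. In DS3 the lowest row of the window had a log2 difference of -3.01 while the window median was -0.08.

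In DS8 the higher rows formed the longest run of the chromosome. Rows 49 to 73, from 35.3 to 40.6 Mb, were all higher than the median of the other 7, which is 25 rows in succession with a median of 0.73. This run and the stretch within it were likewise picked for their values. Within it, rows 53 to 61, from 37.3 to 38.1 Mb and over 7 genes at the moved positions, were each at least 1.5-fold higher and summed to 4194 CPM in DS8, against 3100 in PC9-MGH, 2570 in PC9-VU, 2701 in DS6, 2368 in DS3, 2089 in DS7, 2051 in DS9 and 1647 in PC9-BR1. DS8 was the highest and PC9-BR1 the lowest of the 8. Window 5 continued the run, with a median of 0.39 in DS8 (0.02 to 0.73) and 14 of 15 rows higher, and a sum of 2819 CPM against 2415 in PC9-MGH and 1736 to 1933 in the other 6.

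Window 6 was higher in PC9-MGH. The summed counts were 2645 CPM in PC9-MGH, 1980 in DS8 and 1873 in PC9-BR1, and between 1669 in DS6 and 1830 in PC9-VU in the others. The median in PC9-MGH was 0.44 (0.39 to 0.75), and 0.29 on the rlog scale. Single rows departed widely from it, and the lowest had a log2 difference of -3.38. The window median of PC9-BR1 was close to the others here, at -0.07, with 2 of 15 rows at least 1.5-fold higher. Its longest run of higher rows began near the end of the window. That run, rows 89 to 99 from 42.5 to 46.3 Mb, had a median of 0.69 and was picked for its values.

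Window 7, at the end of the long arm, was higher in PC9-MGH and PC9-BR1. The summed counts were 6090 CPM in PC9-MGH (6000 to 6180) and 3849 in PC9-BR1 (3776 to 3924), against 2589 in PC9-VU, 2517 in DS3, 2410 in DS6, 2510 in DS7, 2541 in DS8 and 2404 in DS9. The 6 remaining libraries lay within 2404 to 2589 CPM, below both. The median log2 difference was 1.24 in PC9-MGH (0.81 to 1.65), a 2.36-fold level with 19 of 21 rows higher, and 0.60 in PC9-BR1 (0.47 to 0.69), a 1.52-fold level with 20 of 21 rows higher. With rows of few counts included the median of PC9-MGH was 0.59, and on the rlog scale that of PC9-BR1 was 0.38. The row with the most counts, row 103, had 1663 CPM in PC9-MGH and 1164 in PC9-BR1, and between 715 in DS6 and 812 in DS8 in the others.

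PC9-MGH was higher still toward the end of the window, in rows again picked for their values. The last 11 rows, from 46.4 to 50.3 Mb and over 9 genes at the moved positions, were each at least 1.5-fold higher in PC9-MGH, with log2 differences from 0.81 to 2.41 and a median of 1.64. They summed to 4912 CPM in PC9-MGH and 2702 in PC9-BR1, against 1840 in PC9-VU, 1797 in DS3, 1772 in DS6, 1787 in DS7, 1760 in DS8 and 1634 in DS9. In the last 6 rows, a bin that ends at 50.3 Mb, the median of PC9-MGH reached 2.05, and that of PC9-BR1 was 0.56. In PC9-BR1 the level was more even, with medians of 0.65 in the first 10 rows of the window and 0.59 in the last 11.

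**Figure D5:**
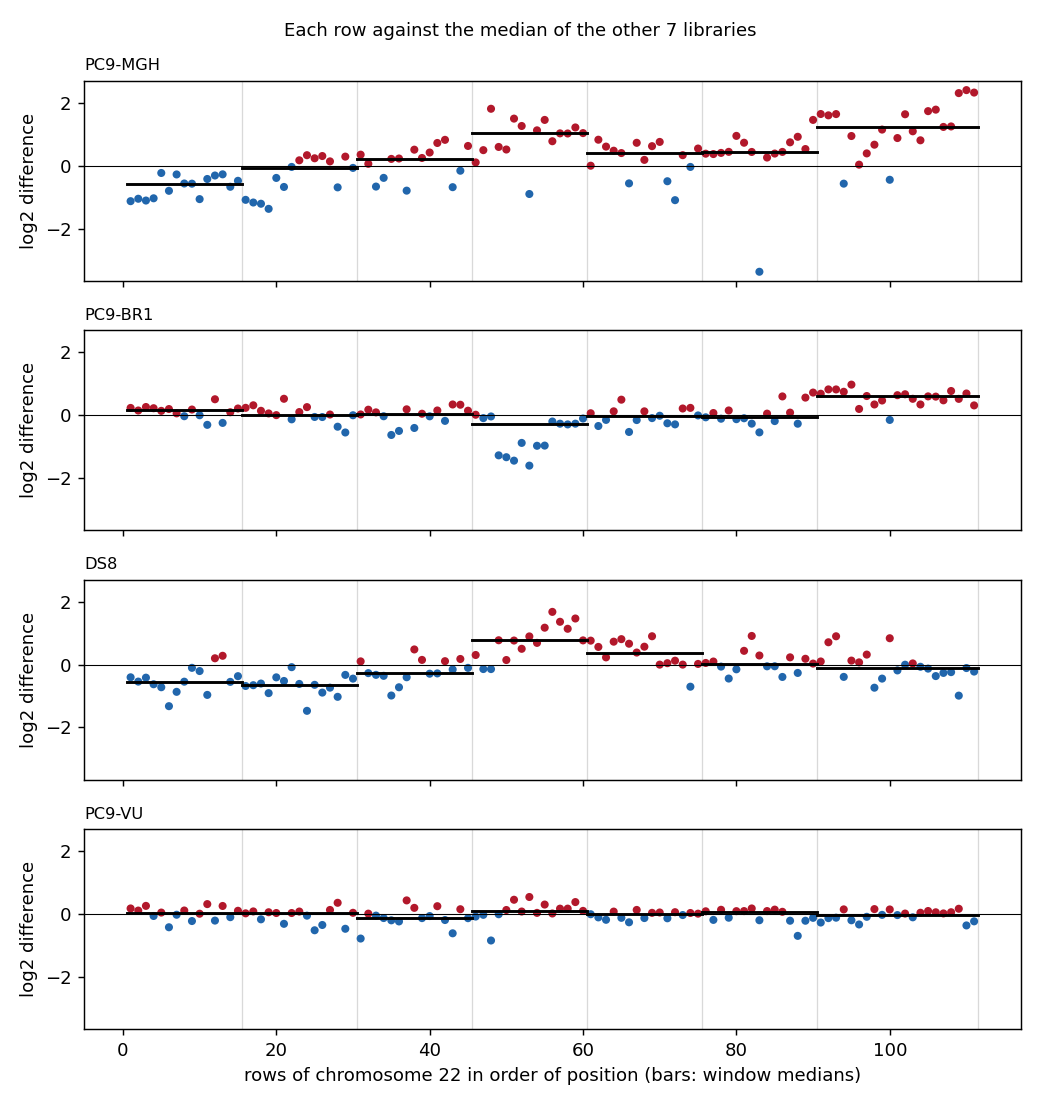
Log2 difference of each of the 111 chromosome 22 rows from the median of the other 7 libraries (red above 0, blue below), in order of position, for DS8 and the versions PC9-MGH, PC9-BR1 and PC9-VU, with window medians as black bars. The first 22 rows are below 0 in PC9-MGH, rows 49 to 55 drop in PC9-BR1, rows 49 to 73 are above 0 in DS8, and the window medians of PC9-VU lie between -0.12 and 0.10, with 4 of its rows at least 1.5-fold lower.

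Since PC9-BR1 and the sublines were derived from PC9-VU, the windows were also set against PC9-VU alone. PC9-BR1 minus PC9-VU had a median of -0.42 in window 4 (-1.28 to -0.10) with 2 of 15 rows higher, and of 0.59 in window 7 (0.45 to 0.71) with 20 of 21 rows higher. Its other windows lay between -0.05 and 0.09 with intervals that include 0. DS8 minus PC9-VU was -0.49 in window 1, -0.54 in window 2, 0.67 in window 4 with 14 of 15 rows higher, and 0.26 in window 5. PC9-MGH minus PC9-VU was -0.48 in window 1 with 0 of 15 rows higher, 0.85 in window 4 and 1.19 in window 7. In these 3 libraries the windows named here lay on the same side with PC9-VU as the reference as with the median of the other 7. The other sublines also lay below PC9-VU in window 4, at -0.18 in DS3 (-0.32 to -0.04) and -0.16 in DS9 (-0.26 to -0.08). DS6 had -0.13 and DS7 -0.09 there, with intervals that include 0. PC9-VU itself had 0.10 in window 4 against the other 7, with 11 of 15 rows higher. DS3 was above PC9-VU in window 1 (0.18) and DS9 in window 3 (0.08), with intervals that exclude 0.

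PC9-MGH was also set directly against PC9-BR1. Over the 111 rows PC9-MGH was higher by a median of 0.30 (0.07 to 0.51), with 68 rows higher. The windows were uneven, with -0.67 in window 1 (-1.18 to -0.32) and 0 of 15 rows higher, 1.27 in window 4 (0.96 to 2.07) and 15 of 15 higher, and 0.68 in window 7 (0.25 to 0.97) and 16 of 21 higher. The rows separated the versions in opposite directions at the ends of the chromosome.

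The share of neighbouring rows on the same side of the other libraries was set against the pooled pairs of all other chromosomes. It was larger on chromosome 22 in PC9-MGH and DS8. Single chromosomes were not ranked by this share, so it is not shown to be particular to chromosome 22. Of 110 neighbouring pairs, 77.3% were on the same side in PC9-MGH and 74.5% in DS8, where the pairs of other chromosomes gave 65.2% and 61.2%. In PC9-BR1 the share was 63.6% against 62.1%, and in PC9-VU 55 of 110 pairs against 56.5%. Since 15 neighbouring pairs lay over the same gene at the moved positions, these shares are a description. Longer runs than those of chromosome 22 were found elsewhere, with 41 rows lower on chromosome 16 in PC9-MGH and 40 rows higher on chromosome 18 in DS8. In PC9-BR1 the longest runs of chromosome 22 were 11 rows higher and 14 lower. Elsewhere they were 32 rows higher on chromosome 1 and 50 lower on chromosome 20.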

How the data were processed

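RNA of 8 PC9 populations, 1 library each, was depleted of ribosomal RNA and enriched for poly-A. For each library the authors mapped read pairs to hg38 (STAR, version 2.5.2b), counted them with featureCounts (version 1.6.4) against an annotation supplied by 10X Genomics, and deposited raw counts per row without normalization. Strandedness and the handling of overlapping genes are not given in the sources used here. Rows without a symbol, 4.23% to 4.41% of a library's counts, were left out of library sizes.

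Log2 CPM came from edgeR (version 4.0.16, R version 4.3.3) with TMM factors, the prior count being 2. Compared were the 4529 rows that match 1 gene of chromosomes 1 to 22 or X and average 50 counts or more. Summed CPM values use the total of the named rows as denominator. Groups came from the population name in the labels, and no test was made with 1 library per population. Steps were tested on simulated data. The chromosome, the windows and the alternatives were chosen with earlier results of these data known, and by the rule for named genes no gene is named from a row. The alternatives covered the filter on low rows, prior count, size factors, rlog of DESeq2 (version 1.42.0), the reference libraries, centring, GC content within 250000 bases of the named gene (lowess, fraction 0.3), window size and the fold. The runs, the stretches of neighbouring rows and the setting with 1 row per gene were added after seeing the data.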

Additional observations from a re-analysis of the deposited data

How the results depend on the processing

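Of 95 chromosome 22 medians under the alternatives, 94 stayed within the interval over rows of the main setting, and of 665 window medians 658 did. With no filter on low rows the PC9-MGH median of the chromosome was 0.0, since rows at or near 0 counts then enter. The highest and lowest window medians of PC9-MGH were 2.85 apart in bins of 5 Mb.

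Shares of chromosome 22 rows past the fold depended on the filter and the fold, and each is given with the share over all rows under the same setting in parentheses. When rows with a mean down to 10 counts entered, the higher share was 5.17% in PC9-VU (3.54%), 4.6% in DS7 (4.47%) and 7.47% in DS9 (6.87%), and the lower share 8.62% in DS6 (6.89%) and 8.05% in DS7 (8.79%). With no filter, the higher share was 8.29% in PC9-VU (8.46%), 20.29% in PC9-BR1 (16.1%), 8.0% in DS3 (10.8%), 11.71% in DS6 (14.9%), 13.71% in DS7 (13.3%) and 15.14% in DS9 (12.8%), and the lower share 9.71% in PC9-VU (7.11%), 10.0% in DS3 (10.1%), 11.71% in DS6 (8.88%), 8.86% in DS7 (10.4%) and 9.14% in DS9 (8.08%). Against PC9-VU alone the higher share was 8.11% in DS6 (4.79%) and 3.6% in DS7 (2.87%). At 2-fold, the higher share was 20.72% in PC9-MGH (5.52%), 4.5% in DS8 (2.08%) and 0.0% in PC9-BR1 (0.905%), DS3 (1.26%) and DS9 (0.729%), and the lower share 9.91% in PC9-MGH (7.26%), 2.7% in DS8 (2.45%) and 0.0% in PC9-VU (0.0442%), DS6 (0.994%), DS7 (1.26%) and DS9 (0.707%).

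The log2 ratio of summed counts to the median of the other 7 was 0.44 in PC9-MGH, 0.013 in PC9-VU, 0.040 in PC9-BR1, 0.093 in DS8, -0.042 in DS3, -0.040 in DS9, -0.013 in DS6 and -0.085 in DS7, and depended on the denominator and on large rows. With TMM effective library sizes it was 0.49 in PC9-MGH, 0.024 in PC9-BR1, -0.024 in DS3, 0.024 in DS6, -0.044 in DS7 and 0.11 in DS8, and it reversed to -0.024 in PC9-VU. The value of DS6 also changed sign, from one whose counting interval included 0. Without the 3 largest rows of each window it was 0.52 in PC9-MGH, 0.12 in PC9-BR1, -0.056 in DS3, -0.041 in DS6, -0.067 in DS7 and 0.017 in DS8, and it reversed to -0.0048 in PC9-VU and 0.0048 in DS9. The cause was not tested. The single library per population, the displaced row names and the rows that share a gene limit every value here, and no replicate could be left out. No paired analysis was possible because each population has a single library.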
